A study of Mus musculus with 8 samples.

Results

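The 10 genes described here are 3 ligands of transforming growth factor beta (TGF-beta), *Tgfb1*, *Tgfb2* and *Tgfb3*, their receptors *Tgfbr1*, *Tgfbr2* and *Tgfbr3*, the Smads *Smad2*, *Smad3* and *Smad7*, and the target gene *Tgfbi*. They were chosen by gene symbol as parts of a pathway, with earlier results of these data known, from 21859 genes counted in each aorta, and all 10 had enough reads to be tested. RNA was sequenced from whole aortas of 4 ApoE-/- and 4 wild-type (WT) male mice, 40 weeks old and on chow, which the labels call a normal diet, with 1 library per mouse. ApoE-/- mice lack apolipoprotein E in every cell from conception, clear lipoproteins poorly and develop plaques. The study's methods place the ApoE-/- line on the C57BL/6 background and give the WT mice as C57BL/6. The study asked which genes differ in the atherosclerotic aorta, and the groups differed in no agent or diet that the labels name. No allele other than the *Apoe* deletion is given for either group.

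TGF-beta is secreted in a latent complex, in which its own propeptide and a latent TGF-beta binding protein hold it to the matrix until integrins, thrombospondin or proteases release it. The free ligand binds the type II receptor, which recruits and phosphorylates the type I receptor, and the type I receptor in turn phosphorylates Smad2 and Smad3, which enter the nucleus with Smad4. In the aortic wall the pathway is known for maintaining contractile smooth muscle, for driving collagen and elastin synthesis, and for aneurysm when its genes are mutated.

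Between 23240995 and 23940156 read pairs fell on genes in the ApoE-/- aortas and between 18375898 and 21664598 in the WT aortas, without overlap. All pairs, on genes or not, overlapped, at 67231818 to 72143353 in ApoE-/- and 65355678 to 75627250 in WT. The share on genes did not, at 32.3% to 35.6% and 27.9% to 30.2%. The part of this difference in the results was not tested beyond the scalings tried. The members' counts ran from 382 for *Tgfb1* to 7782 for *Tgfbr2* in a single library. Levels are given in CPM, counts brought to a common library size with the TMM factors of edgeR. *Apoe* was at 14.7 to 36.3 CPM in the ApoE-/- aortas and at 536 to 857 CPM in the WT aortas (log2 fold change −4.83, SE 0.37, adjusted p = 0.01406 by edgeR), which matches the labels. The smooth muscle markers that define the aortic wall were present in every library. ApoE-/- replicate 1 stood apart: its 9 smooth muscle markers summed to 5293 CPM, against 13100 to 21415 CPM in the other ApoE-/- aortas and 11711 to 21830 CPM in WT, and its 7 nerve markers summed to 4126 CPM, against 73.95 to 361.3 and 278.4 to 905.7 CPM. Results are therefore given with and without it. With all 8 aortas, edgeR called 70 of 15077 genes between genotypes at an adjusted p under 0.05, which is 0.464% of genes.

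**Figure D1:**
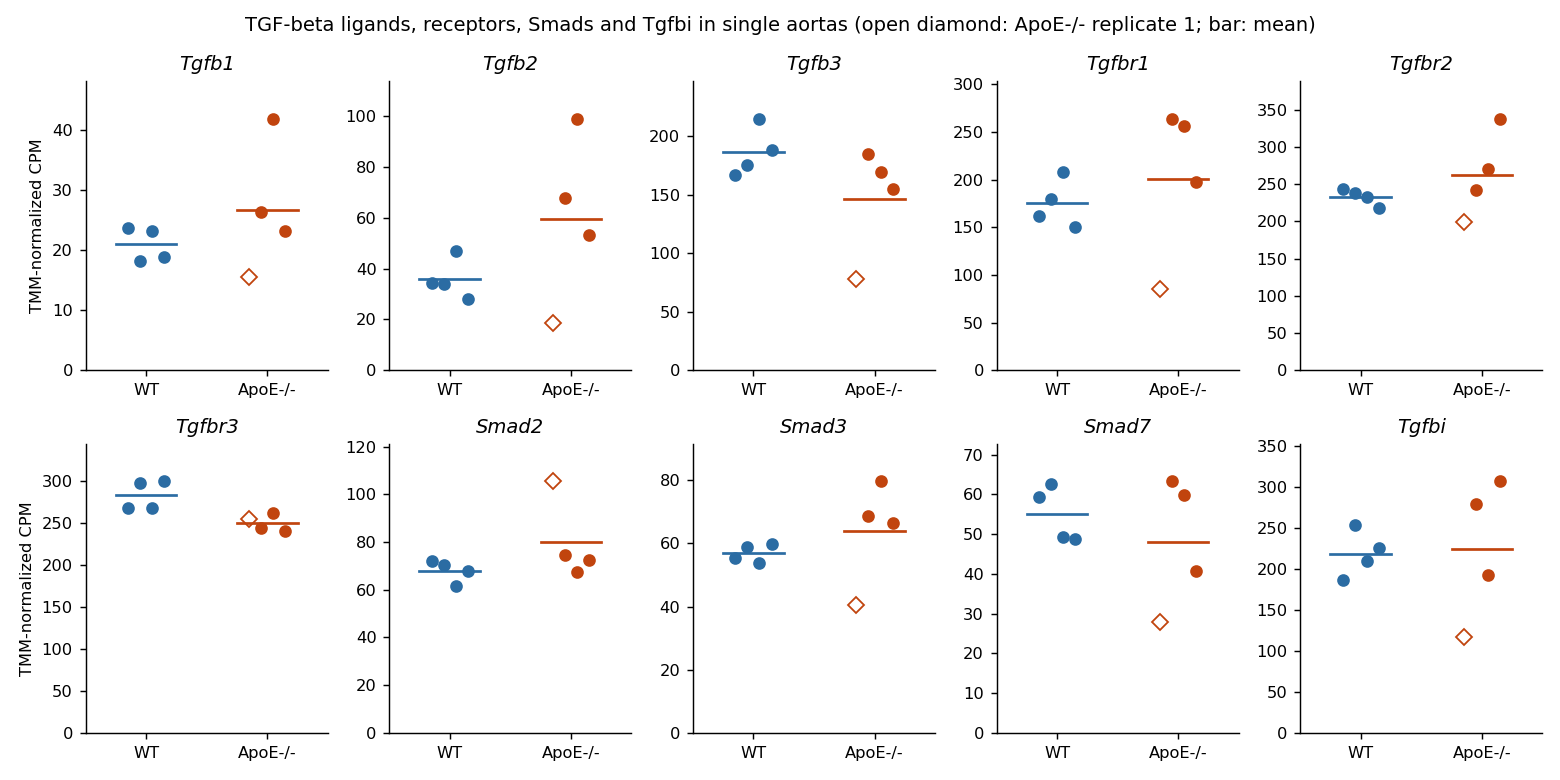
Level of each of the 10 genes in each aorta, in TMM-normalized CPM (vertical axes start at 0), with WT in blue, ApoE-/- in red and a bar at each group's mean (N = 4). ApoE-/- replicate 1 (open diamond) was the lowest of the 8 aortas for 8 genes and the highest for *Smad2*, and the genotypes were separate only for *Tgfbr3*.

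None of the 10 genes passed the adjusted threshold in the genotype comparison by edgeR, and none passed by DESeq2, which called 4.97% of genes. No member had an unadjusted edgeR p under 0.05, where 11.4% of genes did, and by DESeq2 the only such member was *Tgfbr3*, where 13% of genes were under that value. The edgeR log2 fold changes, ApoE-/- against WT, ran from −0.34 for *Tgfb3* to 0.74 for *Tgfb2*, with 7 above and 3 below 0. Over all genes tested, 8747 of 15077 were above 0. The median was 0.17 for the members, against 0.05 over all genes tested. The 2 genotypes shared no range for 1 member, *Tgfbr3*, which was lower in ApoE-/-. That was true of 8.71% of all genes, 5.41% higher and 3.3% lower in ApoE-/-. Exact two-sided permutation p-values on log2 CPM lay between 0.0286, the smallest that 4 against 4 mice allow, and 0.943.

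**Figure D2:**
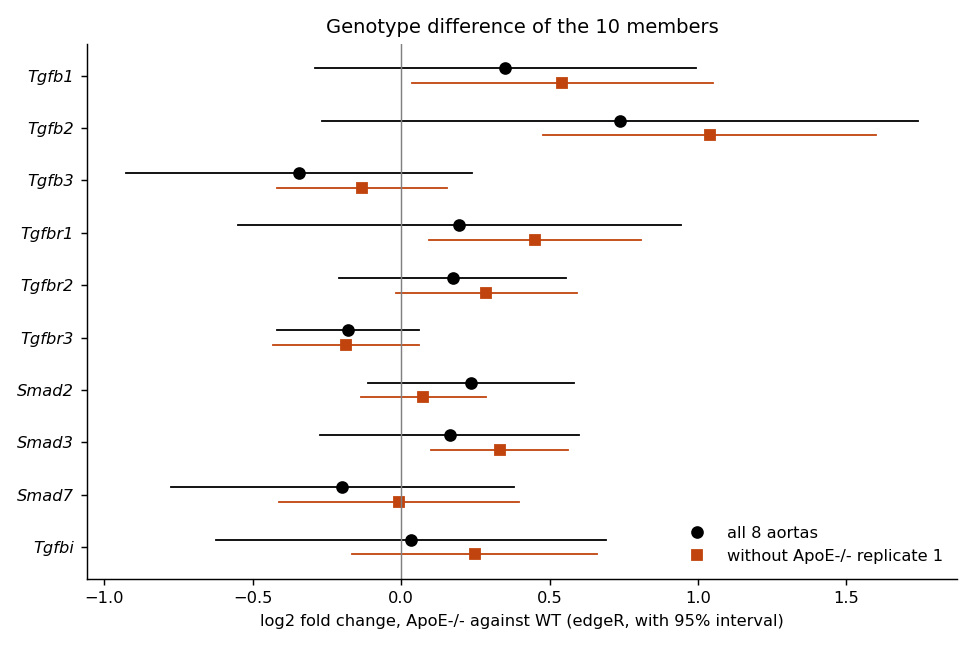
Log2 fold change of ApoE-/- against WT for each gene, with the 95% interval of edgeR's quasi-likelihood fit, for all 8 aortas (black circles) and without ApoE-/- replicate 1 (red squares). All 10 black intervals span 0, while the red intervals of *Tgfb1*, *Tgfb2*, *Tgfbr1* and *Smad3* lie above it.

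Of the ligands, *Tgfb2* had the largest difference of the 10 members. Its protein is a ligand that the betaglycan coreceptor helps to present to the signalling receptors, and it is needed for heart and great vessel development. *Tgfb2* (chr1:186622792-186705989, minus strand, GRCm38) was at 18.5, 67.7, 99.0 and 53.2 CPM in ApoE-/- replicates 1 to 4 and at 34.2, 33.8, 47.0 and 28.0 CPM in WT replicates 1 to 4. Replicate 1 was the lowest of all 8 aortas, and the other 3 ApoE-/- aortas were above every WT aorta. The log2 fold change was 0.74 (SE 0.44, 95% interval −0.27 to 1.74, adjusted p = 0.6322 by edgeR), so that a range from 0.831-fold to 3.34-fold was compatible with these mice. Without ApoE-/- replicate 1 it was 1.04 (SE 0.24, interval 0.48 to 1.60), with an adjusted p of 0.0603 by edgeR and 0.00229 by DESeq2, and without ApoE-/- replicate 3 it was 0.38. In bulk aorta, a change in the number of cells that make a transcript and a change in the amount per cell cannot be told apart.

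*Tgfb1*, which encodes the isoform made by platelets, macrophages and most other cells, was at 15.5, 26.3, 42.0 and 23.3 CPM in ApoE-/- aortas and at 23.8, 18.2, 23.2 and 18.9 CPM in WT. ApoE-/- replicate 3 was well above the rest, replicate 1 was the lowest, and the genotypes overlapped. The log2 fold change was 0.35 (SE 0.28, adjusted p = 0.7593 by edgeR) and 0.54 without replicate 1 (adjusted p = 0.238), and it was 0.05 without replicate 3. *Tgfb1* lies 5.99 Mb from *Apoe* on chromosome 7 (chr7:25687002-25705077, plus strand, GRCm38), and the part of sequence linked to the deleted allele was not tested.

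*Tgfb3*, which encodes an isoform of mesenchymal cells known for its role in palate closure, gave the highest ligand counts. It was at 77.7, 185.0, 169.5 and 155.2 CPM in ApoE-/- aortas and at 167.2, 175.3, 215.1 and 188.4 CPM in WT. Only replicate 1 was far from the others, and the 3 remaining ApoE-/- values lay within or just under the WT range. Its log2 fold change was −0.34 (SE 0.25, adjusted p = 0.7341 by edgeR) and −0.13 without replicate 1.

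The make-up of the ligand pool was compared within each library, where scaling between libraries does not enter, with counts divided by exonic length. The *Tgfb2* part was 10.9%, 16.3%, 22.6% and 15.4% in ApoE-/- replicates 1 to 4 and 9.85%, 9.52%, 10.6% and 7.53% in WT. All 4 ApoE-/- aortas were above all 4 WT aortas (16.3% ± 4.82 against 9.38% ± 1.33, SD, N = 4 each). Replicate 1 was above the highest WT value only by little (10.93% against 10.64%). Its *Tgfb2* and *Tgfb3* CPM were both the lowest of the 8 aortas. The *Tgfb3* part was 78.6%, 76.4%, 66.4% and 76.9% in ApoE-/- and 82.3%, 84.6%, 83.3% and 86.7% in WT, again without overlap, with a difference between means of −9.68 percentage points. *Tgfb1* made up 7.29% to 11.0% in ApoE-/- and 5.82% to 7.85% in WT, and these ranges overlapped. The 3 parts add up to the whole and are not independent, and the lower mean *Tgfb3* part was met by 6.93 points from *Tgfb2* and 2.75 points from *Tgfb1*. The *Tgfb2* and *Tgfb3* parts were the 2 of the 7 ratios computed that had no overlap, and no ratio was given a test.

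**Figure D3:**
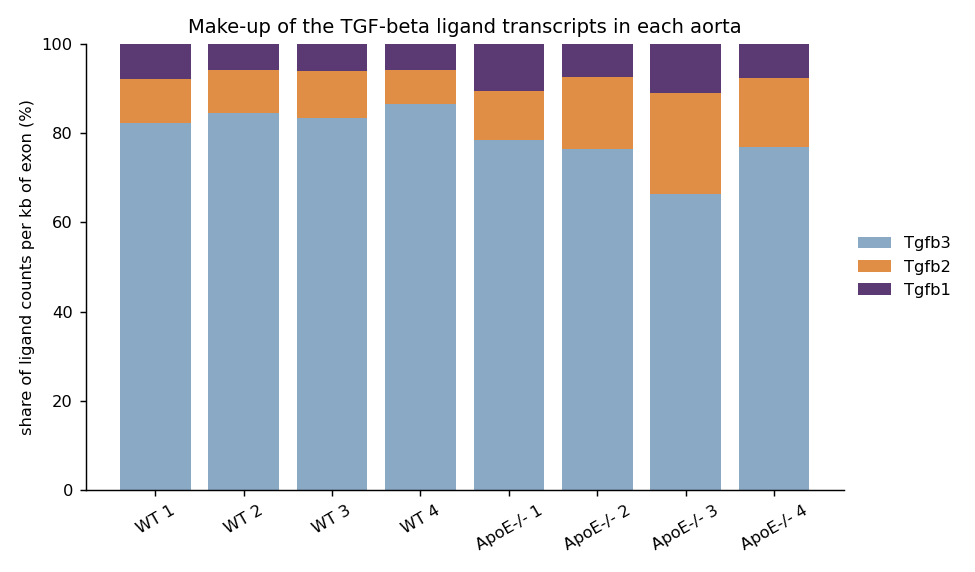
Stacked bars give the part of each ligand in the sum of *Tgfb1*, *Tgfb2* and *Tgfb3* counts per kilobase of exon, in percent, for each aorta. *Tgfb3* fills 82.3% to 86.7% of the WT bars and 66.4% to 78.6% of the ApoE-/- bars, and the *Tgfb2* segment is wider in every ApoE-/- bar than in any WT bar.

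The bases just upstream of the transcription start are shown for *Tgfb1* and *Tgfb2*, because the *Tgfb2* part of the ligand pool was separate between genotypes and the *Tgfb1* part was not. Both windows hold 250 bases before the start, from RefSeq on GRCm38.p6, written 5′ to 3′ on the gene's own strand, and 6 of the 10 members had such a window. They cover chr7:25686752-25687001 (plus strand) and chr1:186705990-186706239 (minus strand). Capitals mark a match on either strand to the TATA box TATAAA, the GC box GGGCGG, the Smad-binding element CAGAC or the E-box CACGTG.
Tgfb1: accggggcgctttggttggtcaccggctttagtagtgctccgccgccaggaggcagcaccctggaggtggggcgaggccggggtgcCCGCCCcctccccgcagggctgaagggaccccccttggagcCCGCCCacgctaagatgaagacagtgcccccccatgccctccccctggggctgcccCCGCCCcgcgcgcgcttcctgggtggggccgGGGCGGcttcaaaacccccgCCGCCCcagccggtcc
Tgfb2: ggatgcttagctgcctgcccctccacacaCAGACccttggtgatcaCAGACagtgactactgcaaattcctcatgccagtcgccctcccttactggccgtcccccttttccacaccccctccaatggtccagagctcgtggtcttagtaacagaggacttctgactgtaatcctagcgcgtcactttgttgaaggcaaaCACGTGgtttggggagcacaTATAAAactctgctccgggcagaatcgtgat

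The *Tgfb1* window holds 5 GC boxes and none of the other motifs. The *Tgfb2* window holds 1 TATA box, 2 Smad-binding elements and 1 E-box, and no GC box. Of the 32851 windows of this length in the table, 12.4% hold the TATA letters, 32.7% the GC box, 42.2% the Smad-binding letters and 6.02% the E-box. These are matches of letters, not sites shown to be bound. Among the other members, 1 GC box and 2 Smad-binding elements lie in the window of *Tgfbi*, 2 GC boxes in that of *Smad3* and in 1 of the 2 windows of *Tgfbr1*, 1 Smad-binding element in the other window of *Tgfbr1*, and 1 Smad-binding element in that of *Tgfbr2*.

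Levels per kilobase of exon placed the members in order in WT aortas. *Tgfbi* (58.0 CPM per kb) and *Tgfb3* (55.1) came highest and overlapped each other, followed by *Tgfbr3* (43.3). *Tgfbr2* (28.4) and *Tgfbr1* (26.8) overlapped, as did *Smad7* (12.2) and *Smad3* (10.3), and *Smad2* (7.73) and *Tgfb2* (6.18). The spread between mice was wider in ApoE-/- for 9 of the 10 genes, with an SD of log2 CPM for *Tgfb2* of 1.03 in ApoE-/- and 0.31 in WT, and of 0.45 in ApoE-/- without replicate 1. Without replicate 1 the ApoE-/- SD was below that of WT for *Tgfb3* (0.13 against 0.16), *Smad2* (0.08 against 0.10) and *Tgfbr3* (0.07 against 0.09), and above it for the others. *Tgfb1* was the lowest at 4.16 CPM per kb, with a range over WT aortas that did not reach that of *Tgfb2*.

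Among the receptors, *Tgfbr3* showed the only separation of genotypes. It encodes betaglycan, the coreceptor that captures TGF-beta and passes it to the signalling pair. *Tgfbr3* (chr5:107106570-107289629, minus strand, GRCm38) was at 255.1, 243.4, 262.2 and 240.4 CPM in ApoE-/- aortas and at 268.1, 297.7, 268.0 and 299.4 CPM in WT. Every ApoE-/- aorta was below every WT aorta. The log2 fold change was −0.18 (SE 0.10, 95% interval −0.42 to 0.06), with an adjusted p of 0.6158 by edgeR and 0.2161 by DESeq2. The exact permutation p was 0.0286, the smallest possible here. Any gene whose genotypes do not overlap gets this p, so it restates the separation and is not further evidence. That held for 1313 of 15077 genes tested (8.71%). Without ApoE-/- replicate 1 the log2 fold change of *Tgfbr3* was −0.19. *Tgfbr3* also varied little, with an SD of log2 CPM over the 8 libraries that lay at percentile 6.9 of all genes. The 3 genes closest to its pattern over the 8 libraries, by the root mean square difference of centred log2 CPM, were *Gtdc1* (0.04), *Fan1* (0.05) and *Magi3* (0.06).

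*Tgfbr1*, the type I receptor kinase, was at 85.2, 263.8, 256.0 and 197.1 CPM in ApoE-/- aortas and at 162.3, 179.5, 207.8 and 150.7 CPM in WT. Replicates 2 and 3 were above every WT aorta and replicate 1 was below, so the groups overlapped. Over all 8 aortas the log2 fold change was 0.20 (SE 0.32, adjusted p = 0.8828 by edgeR) and 0.45 without replicate 1 (edgeR adjusted p = 0.1626). Without replicate 2 or replicate 3 the log2 fold change of Tgfbr1 was 0.04 or 0.06. *Tgfbr2*, the type II receptor that binds the ligand first, was at 198.8, 242.3, 270.9 and 337.8 CPM in ApoE-/- and at 217.8 to 242.9 CPM in WT, with a log2 fold change of 0.17 (SE 0.17, adjusted p = 0.8006 by edgeR), and of 0.03 without replicate 4. The ratios of *Tgfbr2* to *Tgfbr1* (0.733 to 1.86 in ApoE-/-, 0.894 to 1.19 in WT) and of *Tgfbr3* to *Tgfbr2* overlapped between genotypes.

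The receptor-activated Smads differed from each other mainly in replicate 1. *Smad3*, which binds DNA directly, was at 40.6, 68.7, 79.6 and 66.5 CPM in ApoE-/- aortas and at 55.5, 58.9, 53.7 and 59.9 CPM in WT. The other 3 ApoE-/- aortas were above all WT aortas, and replicate 1 was below all of them. With every mouse included, the log2 fold change was 0.16 (SE 0.19, adjusted p = 0.8292 by edgeR). Without replicate 1 it was 0.33 (SE 0.10, interval 0.10 to 0.56), with an adjusted p of 0.1176 by edgeR and 0.04765 by DESeq2. Without replicate 3 it was 0.04.

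*Smad2* was at 105.4, 74.7, 67.4 and 72.4 CPM in ApoE-/- aortas and at 71.9, 70.4, 61.6 and 67.8 CPM in WT. It was the only member for which replicate 1 was the highest aorta, and the ratio of *Smad3* to *Smad2* was accordingly 0.610 in replicate 1 against 1.46 to 1.87 in the other ApoE-/- aortas and 1.22 to 1.40 in WT. The log2 fold change of *Smad2* was 0.24 (SE 0.15, adjusted p = 0.6702 by edgeR) and 0.07 without replicate 1. *Smad7*, the inhibitory Smad that brakes the receptor and is itself a target of the pathway, was at 28.0, 63.2, 59.9 and 40.7 CPM in ApoE-/- and at 59.4, 62.6, 49.3 and 48.8 CPM in WT. The ranges overlapped, with a log2 fold change of −0.20 (SE 0.25, adjusted p = 0.8413 by edgeR) and −0.01 without replicate 1.

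*Tgfbi* encodes a secreted adhesion protein of the matrix that TGF-beta induces. It was at 116.5, 279.3, 192.7 and 306.8 CPM in ApoE-/- aortas and at 186.6, 253.6, 209.2 and 225.6 CPM in WT. The genotypes overlapped, and the log2 fold change was 0.03 (SE 0.29, 95% interval −0.62 to 0.69, adjusted p = 0.9811 by edgeR). Its sign differed between alternative analyses.

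Without ApoE-/- replicate 1 the members' median log2 fold change was 0.27, against 0.00 over all genes. edgeR called none of the 10 and 3.91% of all genes (2.75% higher, 1.16% lower). At an unadjusted p under 0.05 it counted 4 members (*Tgfb1*, *Tgfb2*, *Tgfbr1* and *Smad3*) and 18.7% of all genes. DESeq2 called 2 members, *Tgfb2* and *Smad3*, both higher, and 10.3% of genes (5.75% higher, 4.56% lower). The genotypes were then separate for *Tgfb2*, *Smad3* and *Tgfbr3*, and for 17.3% of all genes. Replicate 1 was the lowest of the 8 aortas for 8 of 10 members and for 22.6% of all genes, and the highest for 26.4%.

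Cell type markers differed between the same aortas. ApoE-/- replicate 4 had the highest macrophage and fibroblast sums. *Tgfbr2* and *Tgfbi* were highest of all 8 aortas there, while *Tgfb1*, *Tgfb2*, *Tgfb3*, *Tgfbr1*, *Smad3* and *Smad7* were lower there than in replicates 2 and 3. The 11 macrophage markers, all with log2 fold changes above 0 and 2 of them called by edgeR, summed in ApoE-/- to 534.6 to 2624 CPM against 433.8 to 509.3 CPM in WT, with the lowest value in replicate 1. The 7 fibroblast markers summed to 3882 to 5582 CPM in ApoE-/- replicates 2 to 4, to 2154 CPM in replicate 1 and to 2362 to 2700 CPM in WT. The endothelial sum ran from 1609 to 2565 CPM in ApoE-/- and from 2316 to 2855 CPM in WT, with 7 of 8 markers lower, none of them called by edgeR. Lymphocyte, adipocyte and skeletal muscle sums overlapped between genotypes, and edgeR called none of their markers. The lymphocyte sums overlapped only just, at 9.009 to 18.26 CPM in ApoE-/- against 4.432 to 9.048 CPM in WT, with all 8 markers higher. All 6 adipocyte markers were lower, and of the skeletal muscle markers 4 were higher and 3 lower. All 7 nerve markers were detected in every aorta. The smooth muscle sums, in which ApoE-/- replicate 1 was lowest and replicates 2 and 3 highest of their group, had the same order as *Tgfb3*, *Tgfbr1* and *Smad7* among the ApoE-/- aortas. The part of these cell types in the members' values was not tested.

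**Figure D4:**
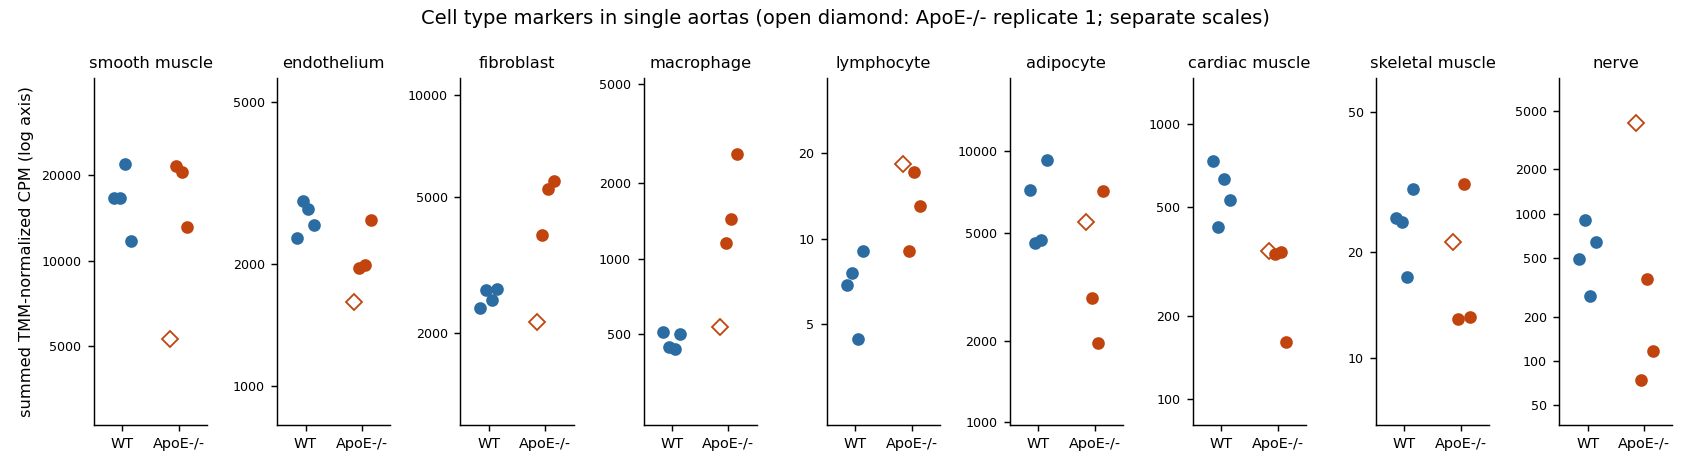
Summed CPM of the markers of 9 cell types in each aorta, each on its own log axis, WT in blue and ApoE-/- in red, with ApoE-/- replicate 1 as an open diamond. Macrophage sums are higher in all 4 ApoE-/- aortas, and replicate 1 has the lowest smooth muscle sum and the highest nerve sum.

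Around the members, 9 lists of genes of the pathway and its relatives were counted, with 90 of 92 genes tested. edgeR called none of them with all 8 aortas. At an unadjusted edgeR p under 0.05 there were 15 higher and 3 lower in ApoE-/-, against 7.19% and 4.17% of all genes. DESeq2 called 5 higher and 2 lower, where it called 3.23% and 1.75% of all genes in the same directions. The genotypes were separate for 9 genes that were higher and 4 that were lower, against 5.41% and 3.3% of all genes, and the median log2 fold change was 0.09. Without ApoE-/- replicate 1 this median was 0.23, against 0.00 over all genes.

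**Figure D5:**
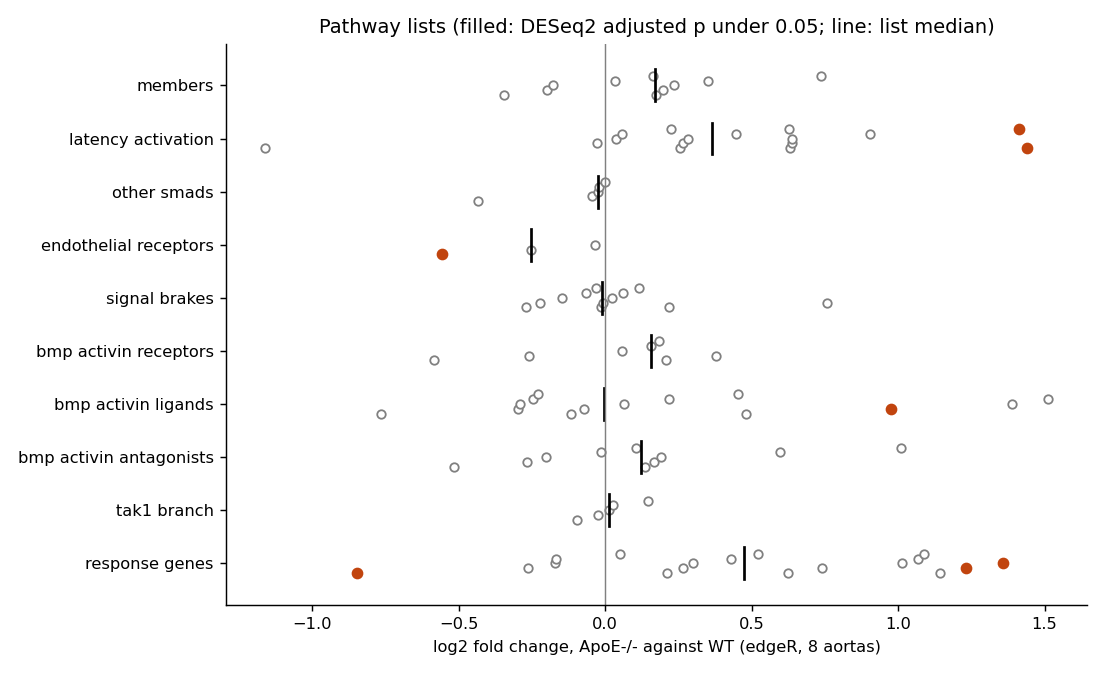
Log2 fold change (ApoE-/- against WT, edgeR, 8 aortas) of each tested gene by list, with the list median as a line and genes with a DESeq2 adjusted p under 0.05 filled in red. The medians of the latency and activation list (0.36) and of the response genes (0.47) lie right of 0, and that of the endothelial receptors (−0.25) lies left.

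The list around TGF-beta latency and activation, which includes *Ltbp2*, *Dcn*, *Bgn* and *Fmod*, had a median log2 fold change of 0.36 over 16 genes. Of these, 14 were above 0, as were 8747 of 15077 genes tested. Without ApoE-/- replicate 1 the median of the list was 0.52. Macrophage sums were higher in all ApoE-/- aortas and fibroblast sums in replicates 2 to 4, as given above, *Dcn* is in this list and among the fibroblast markers, and the part of these cells was not tested. *Ltbp2*, a relative of the latent TGF-beta binding proteins that sits on elastic microfibrils, was at 156.6, 268.7, 549.0 and 348.8 CPM in ApoE-/- and at 136.0, 88.3, 141.3 and 121.8 CPM in WT. Every ApoE-/- aorta was above every WT aorta, replicate 1 by the least, with a log2 fold change of 1.44 (SE 0.36, adjusted p = 0.1265 by edgeR, DESeq2 adjusted p = 0.003993). *Thbs1*, thrombospondin, which can activate latent TGF-beta, was at 331.3 to 1068 CPM against 227.2 to 258.5 CPM (log2 fold change 1.41, SE 0.36, DESeq2 adjusted p = 0.004906). *Nrros*, which anchors latent TGF-beta on macrophages and microglia, also had no overlap (0.63, SE 0.19) but passed neither test. *Ltbp1*, *Ltbp3* and *Ltbp4*, which bind the latent complex, had log2 fold changes of 0.28, 0.45 and 0.04 with overlapping genotypes. With a mouse left out, *Ltbp1* ran from 0.03 (without ApoE-/- replicate 2) to 0.58 (without replicate 1) and *Ltbp3* from 0.19 (without replicate 3) to 0.62 (without replicate 1).

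Of the other Smads, *Smad6*, the inhibitory Smad of the BMP branch, was at 28.5, 41.6, 40.3 and 37.1 CPM in ApoE-/- and at 45.3, 59.9, 47.1 and 46.8 CPM in WT. All ApoE-/- values were below all WT values (log2 fold change −0.43, SE 0.15, adjusted p = 0.2819 by edgeR). *Smad1*, *Smad4*, *Smad5* and *Smad9* had log2 fold changes between −0.05 and 0.00. Among receptors known from endothelium, *Eng*, the endoglin coreceptor, was at 119.8 to 158.7 CPM in ApoE-/- and at 177.4 to 242.5 CPM in WT. It was separate between genotypes, with a log2 fold change of −0.56 (SE 0.16, adjusted p = 0.1686 by edgeR, DESeq2 adjusted p = 0.01862). *Acvrl1* and *Bmpr2* had values of −0.25 (−0.14 without ApoE-/- replicate 1) and −0.03 and overlapped. The median of these 3 receptors was −0.25, and −0.14 without that replicate. The summed endothelial markers overlapped between genotypes, but 2 of the 8, *Cdh5* (197.6 to 233.9 against 261.3 to 305.8 CPM) and *Kdr* (113.1 to 185.9 against 210.7 to 271.3 CPM), were separate and lower in ApoE-/-. Like *Eng*, both were highest among ApoE-/- aortas in replicate 1, where the sum was lowest, and the part of endothelium in the *Eng* value was not tested. The DESeq2 adjusted p behind the log2 fold change of Eng rose above the threshold without ApoE-/- replicate 2 (0.1097) or 4 (0.07716), or WT replicate 2 (0.1215), 3 (0.05735) or 4 (0.1329).

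In the activin and BMP branches, *Inhbb*, a subunit of activin B, was at 8.16, 9.62, 13.1 and 12.5 CPM in ApoE-/- and at 6.15, 6.51, 4.71 and 4.64 CPM in WT. The groups did not overlap, with a log2 fold change of 0.98 (SE 0.21, adjusted p = 0.08121 by edgeR, DESeq2 adjusted p = 0.002175). *Gdf15* (0.93 to 2.95 against 0.48 to 0.83 CPM) and *Acvr1b*, a type I activin receptor (46.5 to 61.9 against 35.3 to 43.3 CPM), were also separate, without an adjusted p under 0.05 by either tool. *Nog*, noggin, a BMP antagonist, was separate in the other direction (0.649 to 1.302 against 1.34 to 2.106 CPM, −0.52, SE 0.29). *Gdf6* (1.51, SE 0.61), the antagonist *Grem1* (1.01, SE 0.40), the secreted *Fstl1* (0.60, SE 0.34) and the activin receptors *Acvr1c* (−0.58, SE 0.39) and *Acvr2b* (−0.26, SE 0.16) overlapped. *Gdf6* had very low levels, at 0.20 to 2.30 CPM in ApoE-/- and 0.38 to 0.47 CPM in WT. With a mouse left out, these genes ran by edgeR, in the same order, from 1.01 to 1.87, 0.59 to 1.27, 0.37 to 0.85, −0.93 to −0.34 and −0.33 to −0.15. The signal brakes, with *Bmper* at 0.76 (SE 0.27), *Nedd4l* at −0.22 and *Tgif1* at 0.22, and the kinase branch through TAK1, with *Tab2* at 0.15, *Tab3* at −0.10 and *Map3k7* at −0.02, had medians of −0.01 and 0.01. *Bmper* and *Tab2* were separate between genotypes, both higher in ApoE-/-. *Bmper* was 0.42 without ApoE-/- replicate 4, and *Tgif1* was 0.06 without replicate 3. *Nedd4l* ran from −0.31 to −0.14 with a mouse left out. The medians were 0.16 for 7 BMP and activin receptors, 0.00 for 14 ligands and 0.12 for 10 antagonists, and 0.31, 0.01 and 0.17 without ApoE-/- replicate 1.

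The response genes, known targets such as collagens, had a median log2 fold change of 0.47 over 18 tested genes, 14 above and 4 below 0. Without ApoE-/- replicate 1 the median was 0.77. The contractile genes of the list, *Tagln*, *Acta2* and *Cnn1*, also stand among the smooth muscle markers. Their log2 fold changes by edgeR were 0.01, 0.12 and 0.11 without that replicate, and as low as −0.46, −0.39 and −0.33 with another mouse left out. *Col3a1*, a fibrillar collagen chain, was at 1484, 2151, 3797 and 3179 CPM in ApoE-/- and at 997, 922, 1301 and 917 CPM in WT. All ApoE-/- aortas were above all WT aortas (log2 fold change 1.36, SE 0.32, adjusted p = 0.1072 by edgeR, DESeq2 adjusted p = 0.0005832). *Col1a1*, which also stands among the fibroblast markers, had 1.23 (SE 0.41, DESeq2 adjusted p = 0.04715), with replicate 1 inside the WT range. *Ankrd1*, a muscle ankyrin repeat protein, was at 9.74 to 16.3 CPM against 16.4 to 30.8 CPM (−0.85, SE 0.24, DESeq2 adjusted p = 0.03363), and the 9 cardiac muscle markers were lower with it, at 160.5 to 345.0 against 420.3 to 731.8 CPM. Behind the log2 fold change of Col1a1, the DESeq2 adjusted p was 0.06173 to 0.2069 with any mouse other than ApoE-/- replicate 1 left out. Behind the log2 fold change of Ankrd1, it was 0.1492 and 0.05085 without ApoE-/- replicates 2 and 4, and 0.2178, 0.09436 and 0.1753 without WT replicates 1, 3 and 4.

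Without ApoE-/- replicate 1, edgeR called 11 of the pathway genes, all higher, where it called 2.75% of all genes higher and 1.16% lower: *Ltbp2*, *Thbs1*, *Fbn1*, *Inhbb*, *Gdf6*, *Gdf10*, *Col1a1*, *Col1a2*, *Col3a1*, *Eln* and *Lox*. DESeq2 called 21 higher and 3 lower on the same aortas, where it called 5.75% and 4.56% of all genes. Those lower were *Eng*, *Ankrd1* and *Sostdc1*, a BMP antagonist named after its values were seen. The sign of *Sostdc1* turned: by edgeR it reached 0.51 with another mouse left out, against −1.54 without ApoE-/- replicate 1. *Fbn1*, *Gdf10*, *Col1a2*, *Eln* and *Lox* were outside the rule for naming genes and are named because they passed. *Lox*, the enzyme that crosslinks collagen and elastin, had a log2 fold change of 1.37 (SE 0.18, adjusted p = 0.009069 by edgeR), and *Eln*, elastin, had 1.39 (SE 0.22, adjusted p = 0.01699). *Fbn1*, the microfibril protein that carries latent complexes, had 1.14 (SE 0.19, adjusted p = 0.01804), *Col3a1* 1.56 (SE 0.24, adjusted p = 0.01469) and *Gdf10* 0.45 (SE 0.09, adjusted p = 0.04385). The fibroblast markers were also higher in these 3 ApoE-/- aortas, and their part in these values was not tested. These genes are shown on the aortas on which they passed. With another mouse left out in place of ApoE-/- replicate 1, the edgeR log2 fold changes fell as low as 0.90 for *Lox* and 0.91 for *Eln*. They fell as low as 0.74 for *Fbn1*, 0.50 for *Col1a2*, 1.14 for *Col3a1* and 0.08 for *Gdf10*.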

How the data were processed

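The authors deposited 1 table per aorta, holding raw, unnormalized counts for each gene. The libraries were stranded, ribodepleted total RNA, sequenced as paired 50-base reads. The submitters' processing notes name TopHat2, HTSeq and GRCm38 (mm10), and the annotation is not given in the sources used here. Pairs on no single gene were left out. They made up 64.4% to 67.7% of pairs in ApoE-/- and 69.8% to 72.1% in WT, so the genotypes did not overlap. Gene coordinates and exonic lengths came from GENCODE M21, in which 21817 of 21859 identifiers were found.

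Counts were filtered with filterByExpr, which kept 15077 genes, and scaled by TMM. Genotypes were compared by edgeR 4.0.16 (quasi-likelihood F test, robust, two-sided) in R 4.3.3, with genotype as the only term and Benjamini-Hochberg adjustment over all genes at 0.05. The SE was obtained as the absolute log2 fold change over the root of the F statistic. For single values there were exact permutation tests over 70 assignments. The alternatives were DESeq2 1.42.0, the study's tool, limma-voom (limma 3.58.1), 2 other scalings, 2 other filters, no robust estimation, a replicate block and leaving out each mouse. The tests were tried on simulated data, where a larger share of the calls made by DESeq2 than of those made by edgeR was false. Motifs were counted with Python 3.11.15.

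The members and lists were chosen with earlier results of these data known. Named genes were all members, the 3 smallest edgeR p-values per list, the *Ltbp* family, the other Smads, *Eng*, *Acvrl1*, *Bmpr2*, and the 3 genes closest in pattern to the member with the smallest p. The labels give separate aortas, so p-values measure the spread between these mice.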

Additional observations from a re-analysis of the deposited data

Results flagged for a closer look

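In groups of 4 aortas, the highest or lowest value was set against the others by Dixon's ratio of the gap to the range, at the 95% critical value. Of 116 groups tested, 6 were past that value, and chance gives about 1 in 20, or 5.8 of 116.

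*Smad1* in ApoE-/- replicate 3 (49.4 CPM, ratio 0.874) was above the other ApoE-/- aortas, at 42.4 to 43.3 CPM. *Smad6* in WT replicate 2 (59.9 CPM, ratio 0.877) was above the other WT aortas, at 45.3 to 47.1 CPM. *Nog*, a BMP antagonist, was lower in ApoE-/- replicate 1 (0.649 CPM, ratio 0.881) than in the others, at 1.224 to 1.302 CPM. The *Tgfb1* part of the ligands in WT replicate 1 (7.85%, ratio 0.903) was above the other WT aortas, at 5.82% to 6.02%. The cardiac muscle markers of ApoE-/- replicate 4 summed to 160.5 CPM (ratio 0.946) against 334.9 to 345.0 CPM in the others. The nerve markers of ApoE-/- replicate 1 summed to 4126 CPM (ratio 0.929) against 73.95 to 361.3 CPM.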

How the results depend on the processing

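Of 1007 gene and alternative values over 42 named genes and 24 alternatives, 903 kept the direction and side of the threshold, 59 passed the threshold where the reported value did not, and 45 changed sign. The causes were not tested. Over all genes, 725 were called by DESeq2, 29 by limma-voom, 2 with a replicate block and 50 to 74 under the other edgeR settings. Leaving out each mouse gave 0 to 1562 calls (edgeR: 0 without ApoE-/- replicate 3, WT replicate 2 or WT replicate 4, 1 or 2 without ApoE-/- replicate 4, WT replicate 1 or WT replicate 3, 17 without ApoE-/- replicate 2 and 593 without ApoE-/- replicate 1). For members called, the range over mice left out was 0 to 2. For members with an unadjusted p under 0.05 it was 0 to 5, with 1 by DESeq2. For pathway genes called higher it was 0 to 21, with 5 by DESeq2, and for those called lower 0 to 3, with 2 by DESeq2. For members without overlap it was 1 to 3. DESeq2 with a mouse left out was added after seeing the data for the counts over all genes, members at an unadjusted p and pathway genes.

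Sign changes fell on values near 0. The log2 fold change of Tgfbi was −0.0467 by limma-voom, −0.0524 with the replicate block and −0.1624 to 0.2474 with a mouse left out. By limma-voom the log2 fold change of Ltbp4 was −0.0719, and it was −0.0686 with the replicate block and −0.1549 to 0.2852 with a mouse left out. The log2 fold change of Smad9, reported at 0.00, was −0.0076 by DESeq2 and with its size factors, −0.0328 by limma-voom, −0.0331 with upper-quartile factors, −0.0322 with the replicate block, −0.0049 without a filter and −0.1221 to 0.1856 with a mouse left out. With a mouse left out, the log2 fold change of Smad1 ran from −0.0877 to 0.0010, the log2 fold change of Smad4 from −0.0970 to 0.0736, the log2 fold change of Smad5 from −0.0961 to 0.0150, the log2 fold change of Bmpr2 from −0.1182 to 0.0463 and the log2 fold change of Map3k7 from −0.0588 to 0.0123. The median of all genes stayed between −0.00 and 0.06.

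The replicate numbers come from different mice. Same-numbered mice correlated at 0.06, −0.45, 0.32 and 0.16, and only replicate 3 matched its own number best, so the numbers were not taken as a pairing. The lowest count of a member in a library was 382, for *Tgfb1*.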
